A study of Mesocricetus auratus with 14 samples.

Results

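The Rab genes of the liver of Syrian golden hamsters (Mesocricetus auratus) were measured by RNA sequencing. A gene was counted as a member when its symbol in the authors' deposited table was Rab followed by a digit and, at most, a letter. This took 39 of the 10023 genes of that table. It left out 7 genes named after Rab proteins, such as Rab3gap1, Rab11fip4 and Rab5if, which encode regulators or partners. Rab7a, Rab1b, Rab18 and Rab9a carry no row under those symbols and were not analysed here. The 7 samples labelled DC371739 came from livers of animals on a high-fat diet given that compound, which is known here only by its code name. The 7 samples labelled control came from livers of animals on the same diet. No label states that the samples are separate animals, so a p-value here measures only how these samples vary, which may be technical. Dose, route, duration, age and sex were not given in the sources used here.

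Rab proteins are small GTPases that direct membrane traffic. Bound to GTP, each sits on a particular organelle and recruits effectors that move, tether and fuse vesicles. Exchange factors (GEFs) load the GTP, GTPase-activating proteins (GAPs) end the cycle, and escort and GDI proteins carry the prenylated Rab to and from membranes. In hepatocytes this traffic serves lipoprotein secretion, uptake of lipoproteins and asialoglycoproteins, transcytosis to the bile canaliculus, lipid droplet turnover and autophagy.

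Libraries held 13672589 to 23948628 counts. Control replicates 6 and 7 and DC371739 replicate 7 were deeper (22152239 to 23948628 counts) and gave 12.6% to 14.4% of their counts to mitochondrial genes, against 7.23% to 9.33% in the other 11. Each result therefore has 3 fits: all 14 libraries, the same with library class as a term, and the 11 shallower libraries alone (6 DC371739 and 5 control). The deeper class holds too few libraries for a value of its own. Of the hepatocyte markers, 9 of 10 were in the table. Alb, the gene of serum albumin, stood at 99251 ± 6648 CPM (counts scaled to library size with TMM) in DC371739 livers and 106054 ± 11675 CPM in control livers (SD, n = 7 each). Ttr (transthyretin) stood at 5046 ± 761 CPM in DC371739 livers and 5911 ± 753 CPM in control livers, and Apoa1 (apolipoprotein A-I) at 6581 ± 838 CPM in DC371739 livers and 7196 ± 1116 CPM in control livers. None of the 9 passed the test over all 14 libraries. With the class term Hnf4a rose (11.1% of the list, against 12.3% of all genes). Over the shallower libraries Hnf4a and Apob rose and none fell (22.2%, against 21.5%).

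Rab1a, which governs traffic from the endoplasmic reticulum to the Golgi, was the most abundant member, and the summed level of the family differed between the groups by less than its spread over libraries. Levels are compared between genes in the authors' FPKM, which divide by annotated exon length. Rab1a stood at 153 ± 9.27 FPKM in DC371739 livers and 153 ± 13.4 FPKM in control livers. Rab5c, of early endosomes, came next at 108 ± 4.8 FPKM in DC371739 livers and 99.6 ± 4.89 FPKM in control livers. Each lay beyond 1 SD of itself and of the next member in both groups. Below them most neighbours overlapped within 1 SD. The exceptions were Rab14, Rab8a, Rab5a and Rab31 in DC371739 livers and Rab22a and Rab31 in control livers, each of which stood apart from the member next below it. Rab14, Rab11a, Rab2a, Rab8a and Rab6a stood at 62.2 to 90.6 FPKM in DC371739 livers and 52.9 to 78.9 FPKM in control livers, and among the controls no neighbours of these 5 were 1 SD of each apart.

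The summed level of the 39 genes was 1073 ± 23 FPKM in DC371739 livers and 1074 ± 39.4 FPKM in control livers. The 6 most abundant members held 51.2% ± 0.986 of that sum in DC371739 livers and 51% ± 1.12 in control livers. At the other end, 11 members in DC371739 livers and 9 in control livers averaged under 3 FPKM, among them Rab7b, Rab38, Rab3a, Rab27a, Rab37 and Rab39. Several of these are known mainly from secretory, pigment or blood cells. The annotated exons are shortest for Rab14 (453 bases), Rab43 (558 bases) and Rab2b (582 bases), and FPKM depend on that length. The exons of Rab22a and Rab2b overlap a gene on the opposite strand, and the counting is not stated to use strand, so those reads cannot be told apart. Reads of close relatives such as Rab5a, Rab5b and Rab5c may also be split by the authors' counting.

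**Figure D1:**
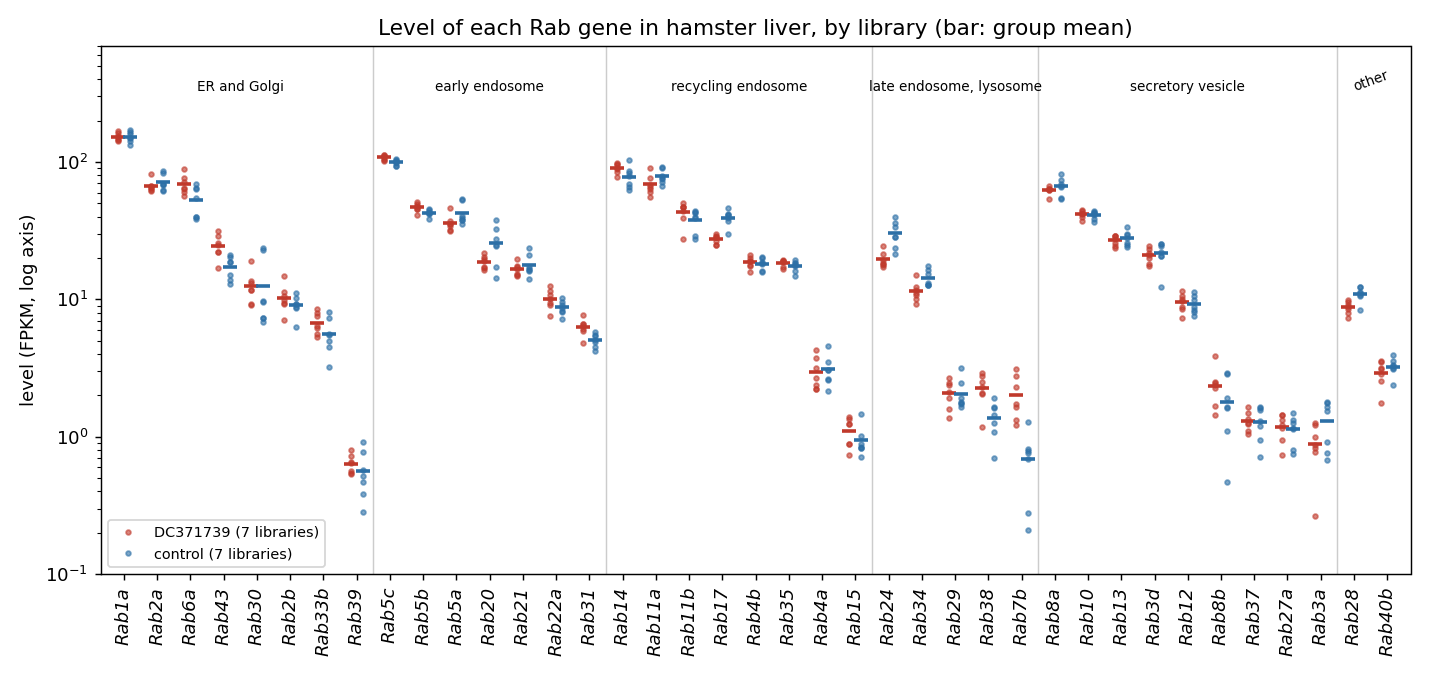
Level of each of the 39 Rab genes in FPKM (log axis), grouped by the membrane they act on; points are the 7 DC371739 and 7 control libraries and bars the group means. Rab1a leads at 153 FPKM in both groups, and Rab7b averages 2.02 FPKM in DC371739 livers and 0.689 FPKM in control livers.

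The comparison of DC371739 with control livers asked which transcripts differed after treatment. Among the Rab genes, Rab7b rose, Rab17 and Rab24 fell, and the other 36 did not pass the test over all 14 libraries. All 39 members passed the expression filter. In edgeR's quasi-likelihood test with Benjamini-Hochberg adjustment over 12166 genes, 3 of 39 members (7.69%) had an adjusted p under 0.05, against 225 genes or 1.85% of all genes tested. Of all genes, 151 (1.24%) rose and 74 (0.608%) fell; with upper-quartile scaling the split was 223 and 65, and with library size alone 124 and 36. At an unadjusted p under 0.05 there were 11 members, and 20.4% of all genes. The median log2 fold change of the members was 0.03, with 23 positive and 16 negative, and that of all genes was -0.02. The median absolute log2 fold change was 0.18 for members and 0.17 for all genes. An absolute value under 0.3 was found for 27 members.

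**Figure D2:**
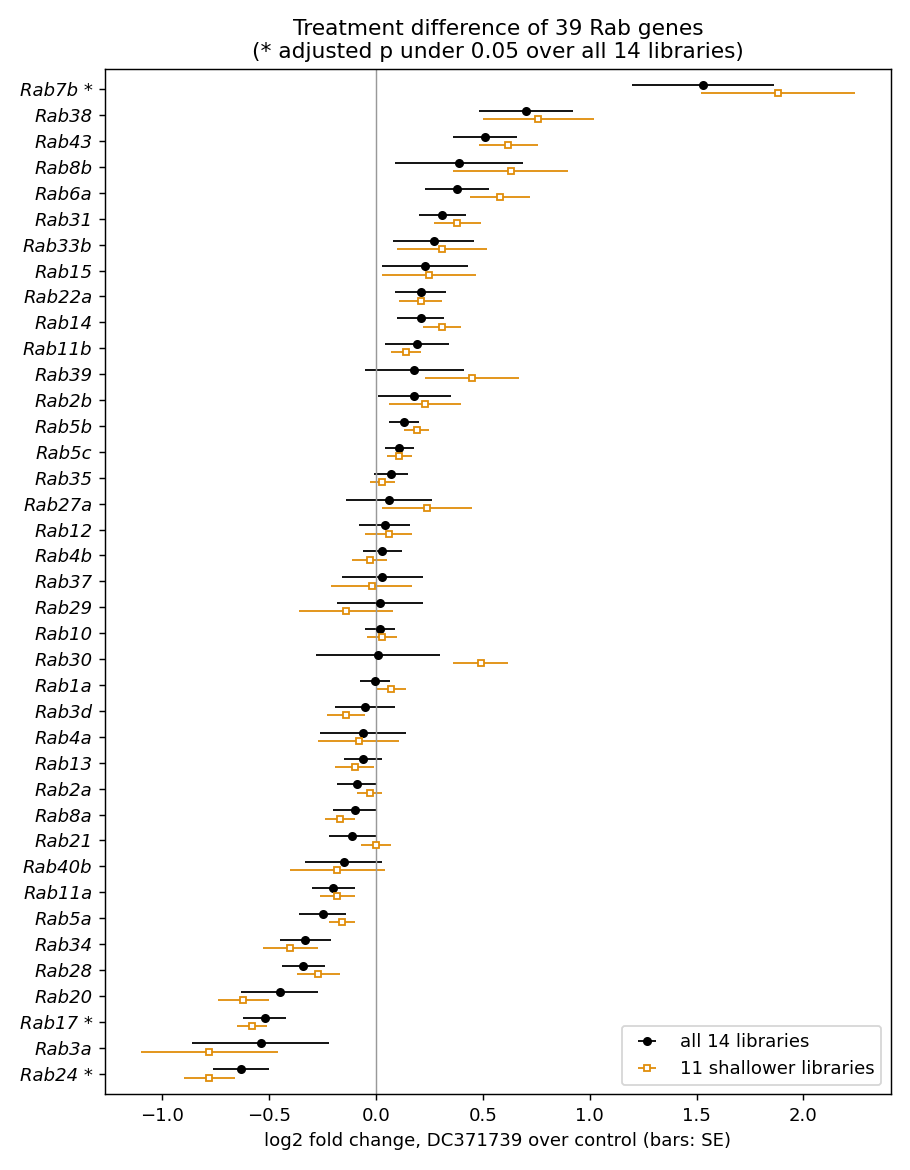
Log2 fold change, DC371739 over control, of the 39 Rab genes with SE bars, over all 14 libraries (filled circles) and over the 11 shallower ones (open squares); asterisks mark an adjusted p under 0.05 over all 14. Rab7b stands apart at 1.53, Rab24 and Rab17 lie at -0.63 and -0.52, and Rab30 moves most between the fits.

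Rab7b acts on late endosomes and lysosomes and on their return route to the Golgi. In mouse macrophages it is known to limit signalling from Toll-like receptors. Rab7b (ENSMAUG00000000889) lies on scaffold KB708221.1 from 113494 to 126925 on the minus strand. These coordinates are the deposited ones; the genome build was not given in the sources used here. In DC371739 livers it stood at 2.03 CPM at the lowest, 2.77 at the median and 5.17 at the highest, from 33 to 90 counts. In control livers the lowest was 0.348, the median 1.23 and the highest 2.10 CPM, from 6 to 44 counts. Each of the 7 DC371739 values exceeded the median of the controls. The groups overlapped in a single place, where control replicate 7 (2.10 CPM) exceeded DC371739 replicate 4 (2.03 CPM).

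Its log2 fold change was 1.53 (SE 0.33, edgeR adjusted p = 0.0322).  The change was 1.61 with the class term (adjusted p = 0.00956) and 1.88 over the shallower libraries (adjusted p = 0.00388). The call was lost without DC371739 replicate 2, 3 or 6 or control replicate 2, 3 or 5, with an adjusted p of up to 0.0834. On the log2(FPKM + 1) scale, which understates the change of low genes, the difference was 0.83. Over the shallower libraries the call held whichever of the 11 was left out.

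Some markers of macrophages were also higher in DC371739 livers. Of 20 such markers, 16 were in the table, and all 16 had counts. Over all 14 libraries Laptm5 (log2 fold change 0.70), Ctss (0.77) and Mpeg1 (0.80), genes of the lysosome and of phagocytes, rose, none fell and 13 did not pass (18.8% called, against 1.85% of all genes). With the class term 8 rose (50.0%, against 12.3%) and over the shallower libraries 6 rose (37.5%, against 21.5%), with none lower in either. Over all 14 libraries 12 were positive and 4 negative, among them C1qa (-0.26) and Cd163 (-0.55). The summed level of the 16 was 892 to 1387 CPM in DC371739 livers, averaging 1239 ± 168 CPM, and 828 to 1201 CPM in control livers, averaging 970 ± 146 CPM. The lowest sum among DC371739 livers was in replicate 4, which also had the lowest Rab7b. Among the other DC371739 livers the order differed. DC371739 replicate 3 had 1211 CPM of markers and the highest Rab7b (5.17 CPM), and DC371739 replicate 7 had 1385 CPM and 2.77 CPM. The order differed among control livers too. Control replicate 1 had 1123 CPM of markers and the lowest Rab7b of the controls (0.348 CPM). Control replicate 7 had 864 CPM of markers and the highest Rab7b of the controls (2.10 CPM). The defining marker Clec4f stood at 99.4 ± 18.7 CPM in DC371739 livers and 77.9 ± 15.7 CPM in control livers (adjusted p = 0.178, and 0.0405 with the class term). C1qc stood at 94.3 ± 21.6 CPM in DC371739 livers and 98 ± 24.6 CPM in control livers. Of the 3 with the highest mean FPKM, Marco stood at 352 ± 58.5 CPM in DC371739 livers and 281 ± 68.6 CPM in control livers, Cd14 at 80.7 ± 16.7 CPM in DC371739 livers and 62.6 ± 8.03 CPM in control livers, and Fcer1g at 49.5 ± 7.09 CPM in DC371739 livers and 42.5 ± 7.57 CPM in control livers, none of which passed in any of the 3 fits.

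Per 1000 CPM of these markers, Rab7b was at 2.69 ± 0.926 CPM in DC371739 livers (1.70 to 4.27) and 1.23 ± 0.712 CPM in control livers (0.310 to 2.43). Neutrophil markers, 3 of 7 in the table, summed to 8.74 to 14.9 CPM in DC371739 livers and 5.84 to 9.93 CPM in control livers. Lymphocyte markers (8 of 13) summed to 8.68 to 19.8 CPM in DC371739 livers and 6.98 to 13.7 CPM in control livers, endothelial markers (8 of 8) to 182 to 253 CPM in DC371739 livers and 155 to 231 CPM in control livers, and stellate cell markers (8 of 8) to 276 to 453 CPM in DC371739 livers and 219 to 314 CPM in control livers. Platelet markers (2 of 5) summed to 29.5 to 40.6 CPM in DC371739 livers and 34.7 to 45.3 CPM in control livers. No gene of these 4 lists or of the neutrophil list passed over all 14 libraries. With the class term and again over the shallower libraries, Pecam1 and Cdh5 (endothelial), Prf1 (lymphocyte) and Csf3r (neutrophil) rose and Ppbp (platelet) fell. Vwf (endothelial) and Reln (stellate) rose over the shallower libraries and did not pass with the class term. The part of these cells in the Rab7b difference was not tested. In whole tissue, a different number of cells of a type and a different amount of RNA per cell cannot be told apart.

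**Figure D3:**
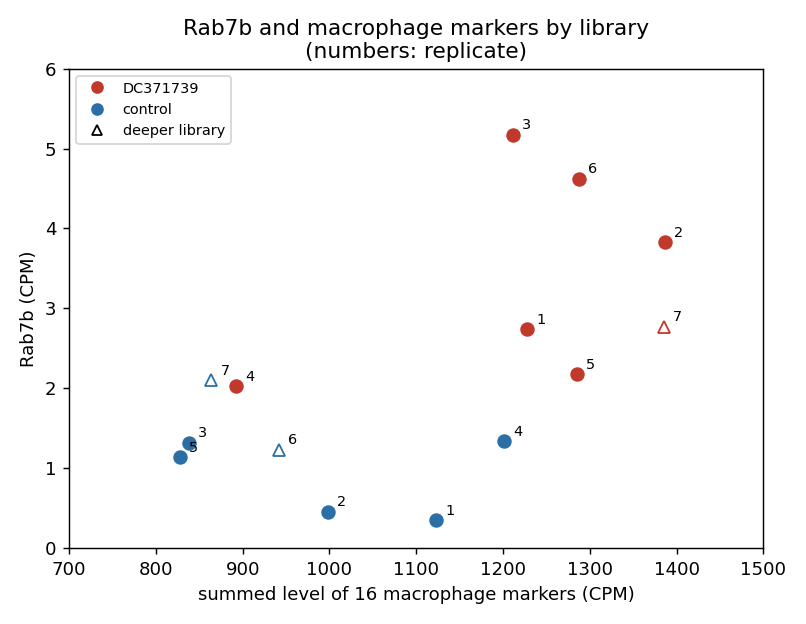
Rab7b level (CPM) against the summed level of 16 macrophage markers (CPM) in each of the 14 libraries, with replicate numbers and open triangles for the deeper libraries. DC371739 replicate 4, at 892 CPM of markers, lies among the control livers on the marker axis. Its Rab7b (2.03 CPM) is above every control except replicate 7 (2.10 CPM). Control replicate 4, at 1201 CPM of markers, has 1.34 CPM of Rab7b.

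Rab24, a late endosomal Rab with a role in the clearance of autophagic compartments, fell. Rab24 (ENSMAUG00000011439; KB708209.1, 1501848 to 1503997, minus strand) stood at 16.7, 18.1 and 23.3 CPM at the lowest, median and highest in DC371739 livers. The corresponding control values were 20.7, 27.7 and 38.8 CPM. Every DC371739 library lay below the control median. DC371739 replicates 1 and 7 (20.7 and 23.3 CPM) reached the lower control values, of which the deeper replicate 7 was lowest at 20.7 CPM. The log2 fold change was -0.63 (SE 0.13, edgeR adjusted p = 0.031), and -0.78 over the shallower libraries (adjusted p = 0.00115), where the groups did not overlap. Over all 14 libraries the call was lost without DC371739 replicate 2, 3, 5 or 6 or control replicate 2, 3 or 5 (adjusted p up to 0.0805).

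The other members of the late endosome and lysosome group did not pass over all 14 libraries. Rab38, which acts on melanosomes and other lysosome-related organelles, stood at 2.22, 4.18 and 5.42 CPM in DC371739 livers (lowest, median, highest) and 1.30, 2.67 and 3.61 CPM in control livers (log2 fold change 0.70, adjusted p = 0.0946). It rose with the class term (0.71, adjusted p = 0.0429) and over the shallower libraries (0.76, adjusted p = 0.046). Rab34, linked to the positioning of lysosomes, stood at 9.21, 11.1 and 15.0 CPM in DC371739 livers and 12.5, 12.9 and 17.7 CPM in control livers. It fell in edgeR's test over the shallower libraries (-0.40, adjusted p = 0.0372) and did not pass in the other fits (-0.33, adjusted p = 0.140, over all 14). Rab29, a partner of the kinase LRRK2, averaged 2.16 ± 0.485 CPM in DC371739 livers and 2.15 ± 0.584 CPM in control livers. In this group of 5 the median absolute log2 fold change over all 14 libraries was 0.63, the value of Rab24 itself. For all genes it was 0.17. The group was set with earlier results of these data known, so the difference is a description and no test.

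Rab17, an epithelial Rab of recycling endosomes known for transcytosis in polarised cells, fell. Rab17 (ENSMAUG00000000642; KB708251.1, 1679470 to 1689536, plus strand) stood at 28.3, 33.3 and 34.8 CPM in DC371739 livers (lowest, median, highest). In control livers it stood at 33.9, 47.6 and 53.8 CPM. The control value of 33.9 CPM, from the deeper replicate 6, was the only one within the DC371739 range; the other 6 controls lay at 42.8 CPM or above. The log2 fold change was -0.52 (SE 0.10, edgeR adjusted p = 0.0201), and -0.58 (adjusted p = 0.000429) over the shallower libraries. This was the smallest adjusted p of the family. Over all 14 libraries the call was lost without DC371739 replicate 3 or 6 (adjusted p up to 0.0504).

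Cholangiocytes also form epithelium in liver. Of their 6 markers 5 were in the table, and these summed to 19.6 to 40.0 CPM in DC371739 livers and 17.6 to 27.0 CPM in control livers. None of the 5 passed the test. Hepatocyte markers had a median log2 fold change of 0.01 over all 14 libraries.

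**Figure D4:**
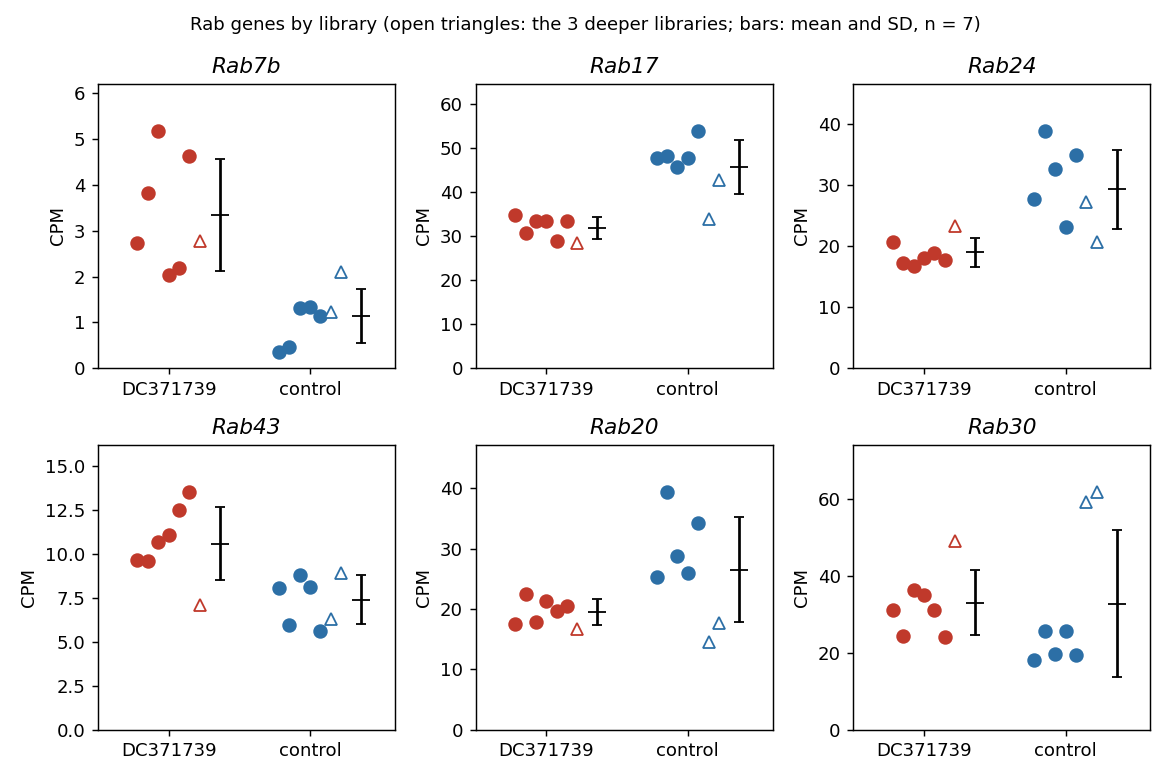
Level in CPM of 6 Rab genes in each library; filled circles are the shallower libraries, open triangles the 3 deeper ones, and bars the mean and SD of 7. Rab7b is higher and Rab17 and Rab24 lower in DC371739 livers, while the deeper libraries lie low for Rab20 and high for Rab30 in both groups.

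The other members of the recycling group moved little. Rab14, which shuttles between the Golgi and endosomes, stood at 31.6 ± 2.5 CPM in DC371739 livers and 27.3 ± 4.74 CPM in control livers (log2 fold change 0.21, SE 0.11, adjusted p = 0.279). It rose over the shallower libraries (0.31, adjusted p = 0.0267). Rab11a and Rab11b, the paralogs of slow recycling, had log2 fold changes of -0.20 (SE 0.10, adjusted p = 0.294) and 0.19 (SE 0.15, adjusted p = 0.490). Rab35 (0.07), Rab4a (-0.06), Rab4b (0.03) and Rab15 (0.23) had adjusted p of 0.55 or above. The sign of Rab4a and Rab4b changed in some alternative fits.

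In the early endosome group none of 7 members passed over all 14 libraries. Rab20, linked to phagosome maturation, stood at 16.6, 19.7 and 22.5 CPM in DC371739 livers (lowest, median, highest) and 14.6, 26.0 and 39.3 CPM in control livers. The 2 deeper controls were the lowest controls, at 14.6 and 17.6 CPM. Over the shallower libraries, where the groups did not overlap, Rab20 fell (log2 fold change -0.62, SE 0.12, edgeR adjusted p = 0.00339). Over all 14 the value was -0.45 (SE 0.18, adjusted p = 0.177).

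Rab31, which links the Golgi to endosomes, stood at 12.7, 16.2 and 20 CPM in DC371739 livers and 11, 13.4 and 15.1 CPM in control livers. It rose with the class term (0.33, adjusted p = 0.0398) and over the shallower libraries (0.38, adjusted p = 0.0272), and had 0.31 and adjusted p = 0.112 over all 14. Rab5a, Rab5b and Rab5c share the role of early endosome fusion. Rab5a averaged 58.2 ± 7.45 CPM in DC371739 livers and 69.0 ± 11.7 CPM in control livers and fell with the class term alone (-0.18, adjusted p = 0.0499). Rab5b averaged 113 ± 8.99 CPM in DC371739 livers and 103 ± 5.05 CPM in control livers, and Rab5c 144 ± 7.26 CPM in DC371739 livers and 133 ± 7.29 CPM in control livers. Rab5b (0.13) and Rab5c (0.11) did not pass in any of the 3 fits. Rab21 (-0.11) and Rab22a (0.21) did not pass either.

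None of the 8 endoplasmic reticulum and Golgi members passed over all 14 libraries, and 6 of the 8 were positive. Rab43, of the Golgi and of receptor export, came nearest. It stood at 7.09, 10.7 and 13.5 CPM in DC371739 livers (lowest, median, highest) and 5.61, 8.07 and 8.92 CPM in control livers. Its lowest DC371739 value was in the deeper replicate 7, and the other 6 lay above every control. The log2 fold change was 0.51 (SE 0.15, edgeR adjusted p = 0.0778) over all 14 libraries. It rose with the class term (0.47, adjusted p = 0.0458) and over the shallower libraries (0.62, adjusted p = 0.00813).

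Rab6a, of retrograde traffic at the Golgi, stood at 32.0, 37.0 and 49.9 CPM in DC371739 livers and 21.7, 30.8 and 38.8 CPM in control livers. It rose over the shallower libraries (0.58, adjusted p = 0.0133) and had 0.38 (adjusted p = 0.165) over all 14. Rab1a had a log2 fold change of -0.0048 (SE 0.07, adjusted p = 0.981), whose sign changed in several alternative fits. Rab2a (-0.09), Rab2b (0.18), Rab33b (0.27) and Rab39 (0.18) did not pass in any of the 3 fits.

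Of the 9 members of secretory vesicles and the plasma membrane, none passed in any of the 3 fits. Their median absolute log2 fold change was 0.06. Rab10, of insulin-regulated glucose transporter vesicles, averaged 112 ± 6.58 CPM in DC371739 livers and 111 ± 7.33 CPM in control livers (0.02, SE 0.07). Rab8a, of polarised transport, averaged 83.1 ± 6.13 CPM in DC371739 livers and 89.3 ± 14 CPM in control livers (-0.10, SE 0.10), and its paralog Rab8b 4.22 ± 1.33 CPM in DC371739 livers and 3.19 ± 1.55 CPM in control livers (0.39, SE 0.30). Rab3d, of secretory granules, averaged 40.0 ± 5.0 CPM in DC371739 livers and 41.4 ± 8.84 CPM in control livers (-0.05, SE 0.14). Rab3a, also of secretory granules, had 0.784 ± 0.294 CPM in DC371739 livers and 1.15 ± 0.443 CPM in control livers from 4 to 28 counts (-0.54, SE 0.32, edgeR adjusted p = 0.344). Rab13 (-0.06), Rab12 (0.04), Rab27a (0.06) and Rab37 (0.03) lay near 0.

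Of the remaining pair, Rab28, a Rab of cilia and photoreceptors, stood at 9.89, 11.8 and 13.2 CPM in DC371739 livers (lowest, median, highest) and 11.3, 15.1 and 16.4 CPM in control livers. It fell with the class term (-0.31, adjusted p = 0.0367), and had -0.34 (adjusted p = 0.0813) over all 14 and -0.27 (adjusted p = 0.0779) over the shallower libraries. Rab40b, which joins a ubiquitin ligase, had -0.15 (SE 0.18).

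With the class term 9 members passed, 4 higher and 5 lower (23.1%, against 12.3% of all genes, 5.62% higher and 6.70% lower). Over the shallower libraries 11 passed, 7 higher and 4 lower (28.2%, against 21.5% of all genes, 11% higher and 10.5% lower). The members that passed in both were Rab7b, Rab17, Rab24, Rab43, Rab38, Rab31 and Rab20. Both fits reuse libraries of the first. The count of 11 fell to 7 without DC371739 replicate 6, to 7 without control replicate 3 and to 6 without control replicate 5. Rab7b, Rab17, Rab24, Rab20, Rab43 and Rab6a passed whichever of the 11 was left out. Rab38 lost its call over the shallower libraries without DC371739 replicate 1, 2, 3, 5 or 6 or control replicate 2, 3 or 5 (adjusted p up to 0.105). Rab34 lost it without DC371739 replicate 2, 3, 4, 5 or 6 or control replicate 2, 3 or 5 (adjusted p up to 0.103). Rab31 lost it without DC371739 replicate 3 or 6 or control replicate 1, 2, 3 or 5 (adjusted p up to 0.0784), and Rab14 without DC371739 replicate 6 or control replicate 2, 3 or 5 (adjusted p up to 0.0763). In no member did the groups separate fully over all 14 libraries, against 0.699% of all genes. Over the 11 shallower libraries 6 members did, against 9.38% of all genes.

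The Rab genes were also compared between the library classes. In edgeR's fit with both terms, 15 of 39 members (38.5%) differed between the deeper and the shallower libraries, 7 higher and 8 lower in the deeper ones, against 46.4% of all genes (22.6% higher and 23.8% lower). With library size alone in place of TMM, which moved the median of all genes by -0.14, the split was 6 and 11. Rab30, a Golgi Rab, led with a log2 difference of 1.21 (SE 0.15, adjusted p = 1.496e-05). It stood at 49.1 to 61.6 CPM in the 3 deeper libraries and 18.2 to 36.2 CPM in the other 11. Its treatment difference was 0.009 (SE 0.29, adjusted p = 0.991) over all 14 libraries and 0.49 (SE 0.13, adjusted p = 0.0162) over the shallower ones. That call was lost without control replicate 5 (0.45, adjusted p = 0.0522).

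Rab11b was lower in the deeper libraries (-0.66, SE 0.08), at 33.8 to 36.1 CPM against 49.4 to 64.0 CPM in the others. Rab8b (0.96), Rab39 (0.68) and Rab5a (0.44) were higher in the deeper libraries and Rab20 (-0.67) lower. Rab7b (0.37, adjusted p = 0.460) and Rab24 (-0.09, adjusted p = 0.665) did not pass in this term, and Rab17 was lower in the deeper libraries (-0.29, adjusted p = 0.0111). The class moves with depth and with mitochondrial share, and their parts were not tested.

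**Figure D5:**
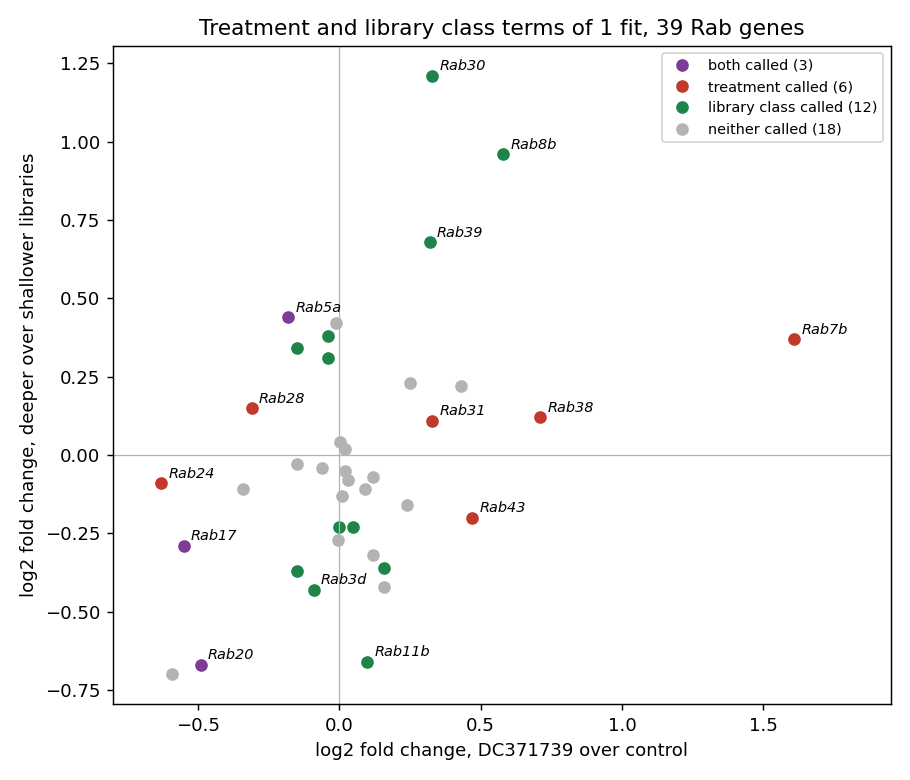
Log2 fold change for treatment (horizontal, DC371739 over control) and for library class (vertical, deeper over shallower) of 39 Rab genes in the fit with both terms, coloured by which term had an adjusted p under 0.05. Treatment passed for 9 genes and library class for 15; Rab30 lies at the top of the class axis and Rab7b at the far end of the treatment axis.

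The balance between paralogs is given as a description, for pairs chosen after their values were seen. The log2 ratio of Rab11a to Rab11b in FPKM was 0.24 to 0.68 in the 6 shallower DC371739 libraries and 0.76 to 0.98 in the 5 shallower control libraries. It stood at 1.73 in DC371739 replicate 7 and at 1.74 and 1.64 in control replicates 6 and 7. The log2 ratio of Rab5a to Rab5c was -1.83 to -1.54 in the shallower DC371739 libraries and -1.49 to -1.30 in the shallower controls. The deeper libraries lay higher, at -1.12 in DC371739 replicate 7 and at -0.79 and -0.91 in the controls. In both pairs the treatment groups separated within the shallower class, and the deeper libraries lay above both. How often ratios of other gene pairs separate was not computed. Over the shallower libraries Rab11a (edgeR adjusted p = 0.114), Rab11b (0.18), Rab5a (0.0925) and Rab5c (0.206) did not pass. For Rab8a over Rab8b the shallower groups overlapped, at 4.66 to 5.44 in DC371739 livers and 5.14 to 7.45 in control livers, and the deeper libraries lay below both, at 3.80 in DC371739 replicate 7 and at 4.23 and 4.24 in control replicates 6 and 7. For Rab2a over Rab2b and Rab4a over Rab4b, the shallower groups overlapped.

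Spread within groups differed among members. The median coefficient of variation was 15.0% in DC371739 livers and 17.4% in control livers, and over all genes tested it was 17.3% in DC371739 livers and 21.1% in control livers. Rab5c varied least in DC371739 livers (5.05%) and Rab5b in control livers (4.89%). Rab30 had 25.9% in DC371739 livers and 58.5% in control livers, Rab7b had 36.6% in DC371739 livers and 52% in control livers, and Rab8b had 31.5% in DC371739 livers and 48.6% in control livers.

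The proteins that run the Rab cycle were described from a list of 194 regulators and effectors, of which 152 were in the table and tested. Tbc1d1, Rab11fip4, Exoc6b and Rufy1 rose, Chml fell and 147 did not pass (3.29% called, against 1.85% of all genes). Chml, an escort protein that presents new Rabs for prenylation, averaged 4.90 ± 0.603 CPM in DC371739 livers and 7.69 ± 1.41 CPM in control livers (log2 fold change -0.65, SE 0.13, edgeR adjusted p = 0.0236). Its relative Chm (-0.14, SE 0.22) and Gdi2 (0.02, SE 0.13) did not pass, nor did Yipf5 (-0.13), Yipf4 (-0.16) and Rabif (-0.07). Gdi2, which extracts Rabs from membranes, was abundant, at 504 ± 57.3 CPM in DC371739 livers and 496 ± 108 CPM in control livers.

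Among 32 GAPs only Tbc1d1, known from insulin-regulated glucose transport, passed over all 14 libraries. It averaged 32.4 ± 5.71 CPM in DC371739 livers and 22.5 ± 3.09 CPM in control livers (0.52, SE 0.12, adjusted p = 0.0397). Tbc1d5, a GAP of Rab7, had 0.55 (adjusted p = 0.120), Tbc1d8 0.44 (adjusted p = 0.153) and Tbc1d9b 0.21 (adjusted p = 0.269). With the class term 1 GAP rose and 1 fell (6.25%, against 12.3% of all genes). Over the shallower libraries 5 GAPs rose, Tbc1d5 and Tbc1d8 among them, and 1 fell (18.8%, against 21.5%). Of 43 exchange factors none passed over all 14 libraries. Trappc9 (0.66, adjusted p = 0.0512) and Trappc6b (-0.30, adjusted p = 0.0519), both of TRAPP complexes, came nearest, followed by Dennd5a (0.29, adjusted p = 0.126) and Rab3gap1 (0.23, adjusted p = 0.154). With the class term Trappc9 rose and Trappc6b and Mon1a fell (6.98% of the list, against 12.3% of all genes), while 8 passed over the shallower libraries, 5 higher and 3 lower (18.6%, against 21.5%).

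Effectors of Rab4, Rab5 and Rab11 held 3 of the 4 that rose (12.5% of 24 genes, against 1.85% of all genes). With the class term 3 rose and 2, Eea1 and Rabep1, fell (20.8%, against 12.3%). Over the shallower libraries 6 rose and 1, Eea1, fell (29.2%, against 21.5%). Rab11fip4, a Rab11 effector, averaged 7.85 ± 2.61 CPM in DC371739 livers and 4.05 ± 0.929 CPM in control livers (0.95, SE 0.22, adjusted p = 0.0405). Exoc6b, a subunit of the exocyst, averaged 4.43 ± 1.13 CPM in DC371739 livers and 2.33 ± 0.734 CPM in control livers (0.91, SE 0.22, adjusted p = 0.042). Rufy1, an endosomal effector, averaged 51.6 ± 4.73 CPM in DC371739 livers and 41.3 ± 2.33 CPM in control livers (0.32, SE 0.08, adjusted p = 0.043). Rab11fip5 had 0.33 (adjusted p = 0.125).

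Of 18 Rab7 effectors and late endosomal tethers none passed over all 14 libraries. There were 14 positive values, and 5675 of 12166 among all genes. Plekhm1 (0.35, adjusted p = 0.0776), Osbpl1a (0.27, adjusted p = 0.0908) and Fyco1 (0.61, adjusted p = 0.108), which link Rab7 to fusion, sterol sensing and outward transport, rose with the class term (16.7% of the list, against 12.3% of all genes). Rubcn, a brake on autophagosome maturation, had 0.42 (adjusted p = 0.118) and rose over the shallower libraries (adjusted p = 0.039). In that fit 4 of the list rose and none fell (22.2%, against 21.5% of all genes). The HOPS tether subunits Vps16 (-0.13), Vps39 (0.24), Vps11 (0.10) and Vps18 (0.11) did not pass in any of the 3 fits. Among effectors of Rab1, Rab2 and Rab6 (16 genes) and of Rab3, Rab8 and Rab27 (11 genes) none passed over all 14. Erc1 (0.48, adjusted p = 0.143) and Mical1 (0.49, adjusted p = 0.105) came nearest, and both rose over the shallower libraries. The others of smallest p were Gcc1 (-0.21), Gorab (-0.29) and Golga2 (0.22) in the first list and Micall1 (0.61), Ehbp1 (-0.13) and Exph5 (-0.26) in the second. Over the shallower libraries 3 of the first list rose, Golga2 among them, and 1, Gcc1, fell (25.0%, against 21.5% of all genes). In the second list 4 rose there, Micall1 among them, and none fell (36.4%). With the class term none of either list passed.

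Over the shallower libraries 34 of the 152 passed, 27 higher and 7 lower (22.4%, against 21.5% of all genes). With the class term 14 passed (9.21%, against 12.3%). The count of 5 over all 14 libraries fell to 0 without DC371739 replicate 3 or 6. It was 1 without DC371739 replicate 2 or 5 or control replicate 1, 2, 3 or 5, and 2 without DC371739 replicate 1 or 4. It was 3 without control replicate 4, 9 without control replicate 7 and 18 without DC371739 replicate 7. The count of 3 Rab members was 0 without DC371739 replicate 3 or 6, and 1 without DC371739 replicate 2 or control replicate 2, 3 or 5.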

How the data were processed

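Liver RNA of 14 samples was sequenced. The submitters' processing notes name featureCounts 2.0.0, HISAT2 2.2.1 and edgeR. Build, annotation and strandedness were not given in the sources used here. Deposited, per the file headers, were the authors' whole-number counts per Ensembl gene (22283 genes, 4781 at 0 in all libraries) and, in a second table, FPKM, log2 fold changes, log2 mean CPM and p-values of their own comparison for 10023 genes with a symbol. From the values, FPKM equal counts per length and per library constant (largest relative deviation 1.3e-07).

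Counts were tested with edgeR 4.0.16 (R 4.3.3): quasi-likelihood F-test, robust dispersions, TMM, default filter (minimum count 10), treatment group alone, 12166 genes, Benjamini-Hochberg adjusted p under 0.05 called. Standard errors come from the fold change and its F statistic. CPM are TMM-scaled. Alternatives were other scalings and filters, DESeq2 1.42.0, limma 3.58.1 (voom with quality weights, or log2 FPKM with a pseudocount of 1 or 0.1, for genes averaging 1 FPKM or more, and once unfiltered), a replicate block, each library left out, a library class term, and a fit without the 3 deeper libraries. Any 2 libraries of a group differed beyond sampling noise (chi-square per degree of freedom 10.6 or more). The test was checked on simulated data with known changes.

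Members, role groups and lists were chosen with earlier results of these data known. Named are all members and, per list of regulators, the 4 genes of smallest p; for macrophage and hepatocyte markers, the 3 of highest mean FPKM. The other markers, Mon1a, Chm, Gdi2, Eea1, Rabep1 and the HOPS subunits were chosen after their values were seen.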

Additional observations from a re-analysis of the deposited data

Results flagged for a closer look

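In 5 of the 78 groups of 7 libraries examined (39 Rab genes in DC371739 and control livers), the highest or lowest library stood apart from the other 6 by more of the group's range than Dixon's critical value at 95% for groups of 7. Chance flags about 1 group in 20. DC371739 replicate 7, a deeper library, accounted for 3 of them. It stood at 129 CPM for Rab2a against 101 to 109 CPM in the other DC371739 livers, at 73.5 CPM for Rab5a against 51.5 to 60.3 CPM, and at 69.9 CPM for Rab8a against 83.6 to 89.3 CPM. Control replicate 6, also deeper, stood at 23.4 CPM for Rab3d against 39.4 to 48.6 CPM in the other controls. Control replicate 3 stood at 3.36 CPM for Rab15 against 1.63 to 2.29 CPM.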

How the results depend on the processing

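Rab7b, Rab17 and Rab24 kept their direction in all alternatives run and their call in all except the replicate block and the single libraries named above. Leaving out 1 library at a time gave 0 to 4 called Rab members, 25 to 1069 called genes, 0 to 18 called regulators and effectors, and a Rab7b log2 fold change of 1.37 to 1.75. Over the 11 shallower libraries it gave 6 to 12 called Rab members. That series, and the other scalings of the library class difference (15 to 17 called Rab members), were chosen after seeing the data. DESeq2 called 6 Rab members, 850 genes and 9 regulators and effectors, and limma-voom with quality weights 11, 2739 and 32. With the class term the counts were 9, 1499 and 14, and without the 3 deeper libraries 11, 2635 and 34. The replicate block called 0 Rab members, 8 genes and 0 regulators and effectors, with Rab7b at 1.57 (adjusted p = 0.0669). Same-numbered libraries had correlations of -0.1311 to 0.5481, the highest between DC371739 replicate 7 and control replicate 7, both deeper. Of the 14, 1 correlated best with its own number. A weak pairing could go unseen in this check over all tested genes, so pairing by number is not excluded. The cause of these shifts was not tested. Signs changed for Rab1a (0.02 with upper-quartile scaling, 0.03 with library size alone, 0.0019 with the class term, 0.07 without the deeper libraries, 0.04 with voom), Rab12 (-0.0027) and Rab4b (-5.8e-05) with the class term, Rab4b (-0.03), Rab29 (-0.14) and Rab37 (-0.02) without the deeper libraries, and Rab4b (-0.02) and Rab29 (-0.08) with voom. Leaving out 1 library also changed the sign of Rab10 (-0.01 to 0.04), Rab12 (-0.0081 to 0.10), Rab1a (-0.03 to 0.02), Rab27a (-0.02 to 0.15), Rab29 (-0.05 to 0.15), Rab30 (-0.12 to 0.24), Rab37 (-0.08 to 0.09), Rab4a (-0.18 to 0.06) and Rab4b (-0.0051 to 0.06). Apart from Rab30, none of these was called. Rab30 did not pass over all 14 libraries and passed over the 11 shallower ones (log2 fold change 0.49, edgeR adjusted p = 0.0162). Where a gene has few counts, as Rab7b in control replicates 1 and 2 (6 counts each), counting error widens the interval of a fold change.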
